A study of Mus musculus with 4 samples.

Results

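Expression of the genes that take up glucose, break it down to pyruvate and handle lactate was measured in testes of male mice lacking Lhcgr, the receptor for luteinizing hormone, and in testes of wild-type controls. The set was written down as 40 genes and covers glucose transporters, the enzymes of glycolysis, lactate dehydrogenases, monocarboxylate transporters, pyruvate dehydrogenase with its kinases, and glycogen enzymes. Members were measured where a probe set carried the gene's symbol and no other, with the brightest such probe set taken for each gene, which left 36 of the 40 among 19938 genes in all. Gapdh is probed by 25 probe sets that each carry several symbols, and Gpi1, Pfkfb1 and Eno1 had no probe set under their symbol, so these 4 genes were not analysed here. Mice of both genotypes received busulfan, an alkylating drug that kills dividing germ cells, at 44 mg/kg, and were killed 4 weeks later. There were 2 Lhcgr KO and 2 control WT samples, each hybridised to a 1-colour Affymetrix array. The sources used here do not give strain, age, the way Lhcgr was deleted or the number of animals behind a sample, so p-values cover the spread between these arrays, which may be technical. Wild-type replicate 2 stood apart in markers of epididymis and ducts, whose summed intensity was 5227 there and 840.1 to 906.4 on the other arrays. Not all of the 9 markers measured took part. Adam7, Rnase12, Defb20, Lcn5 and Epcam were highest on that array, while Lcn8, Cst11, Rnase10 and Teddm1a were not raised.

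Glycolysis splits glucose into pyruvate, and its main control point is phosphofructokinase, which fructose-2,6-bisphosphate switches on. In the testis, Sertoli cells take up glucose, turn most of it into lactate and export that lactate to developing germ cells, which use it as fuel. Many glycolytic steps are served by several isozymes, encoded by different genes with different tissue preferences.

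Of the 36 measured genes, 3 fell in the knockout and the other 33 did not pass the test, so that none was called higher (limma, Benjamini-Hochberg adjusted p under 0.05 over all genes). The 3 were Pfkfb4 and Pfkl, which both belong to the phosphofructokinase step, and Slc2a3, the glucose transporter GLUT3. They made up 8.33% of the set, against 2.14% of all genes called lower and 0.963% called higher. The members were chosen with earlier results of these data known, so shares of the set describe it and do not test it. At an unadjusted p under 0.05, 8 members were lower and 4 higher, or 22.2% and 11.1% of the set, where all genes gave 9.78% lower and 12.9% higher. The median log2 fold change, knockout minus wild type, was -0.16 over the members and 0.07 over all genes. Values below 0 were found for 22 members, 61.1% of the set, against 39.4% of all genes. All genes include a dimmest 25% in which no member lay, and without it their median log2 fold change was 0.02. Leaving out wild-type replicate 2 brought the members' median to -0.06. The comparison asks whether loss of the receptor, and with it the luteinizing hormone signal to Leydig cells, goes with altered sugar metabolism genes in busulfan-treated testes.

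The knockout arrays lay wholly below the wild-type arrays for 14 members (38.9%, against 22.4% of all genes) and wholly above for 7 (19.4%, against 36.8%). The other 15 overlapped. The 95% confidence interval of the change lay within 2-fold either way for 32 of the 36 members (88.9%), against 94.1% of all genes. The exceptions were the 3 called genes and Aldoc.

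Whole-tissue RNA was measured, so fewer cells of a type and less RNA per cell cannot be told apart. Sertoli cell markers were bright on every array, as a testis label requires, with all 14 at or above 8.86 log2 units and a summed intensity of 42288 to 43268 in the knockout and 39245 to 42709 in wild type. Of the 14, only Amh, which encodes anti-Müllerian hormone, passed the test, and it was higher in the knockout (log2 fold change 0.80 ± 0.14, limma adjusted p = 0.0398). Adult Leydig cell markers were lower in the knockout, with 7 of 11 measured genes past the test and none higher. Their summed intensity was 3247 to 4012 in the knockout and 13988 to 25814 in wild type. Macrophage markers were also lower, with 5 of 12 past the test and a summed intensity of 5068 to 5301 against 8824 to 11055. No marker was at 0, the lowest value being 4.27 log2 units for a Leydig marker, near the lowest deposited intensity of 16. The part of these cell types in the changes of Pfkfb4, Pfkl, Slc2a3, Tigar, Ldhd, Ppp1r3c and Ppargc1a was not tested. Values of Lhcgr itself are not analysed here, and the targeted gene therefore gives no check of the labels.

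**Figure D1:**
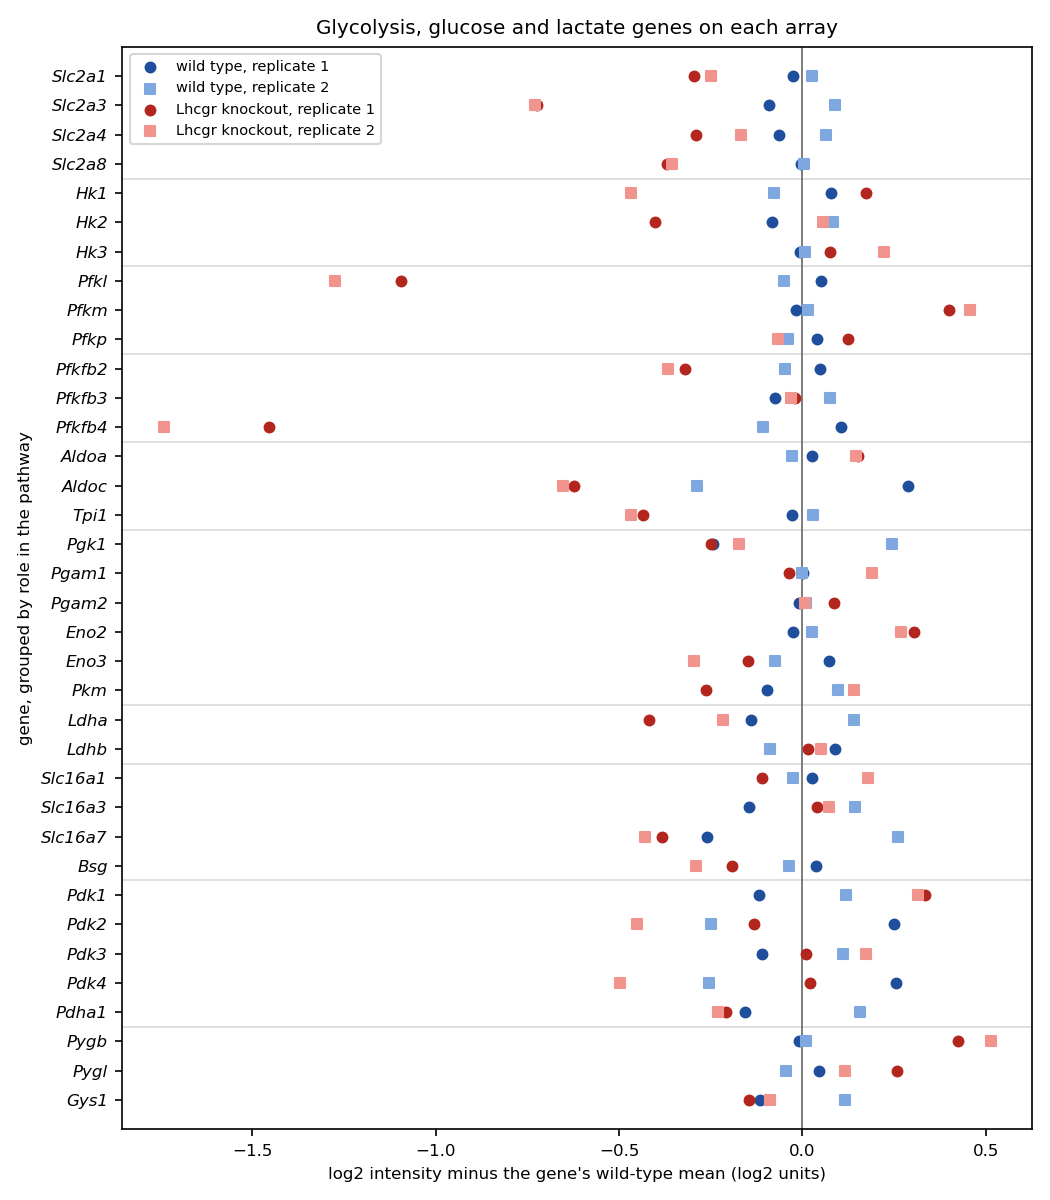
Points show each array's log2 intensity minus the gene's wild-type mean, in log2 units, for the 36 measured genes grouped by role, with wild type in blue and knockout in red. Both knockout arrays of Pfkfb4, Pfkl and Slc2a3 lie far to the left of both wild-type arrays, while Pfkm and Pygb lie to the right.

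Phosphofructokinase, which commits sugar to glycolysis, is assembled from liver-type, muscle-type and platelet-type subunits encoded by Pfkl, Pfkm and Pfkp. Pfkl (probe set 10370376) measured 8.63 and 8.45 log2 intensity units on the knockout arrays and 9.78 and 9.68 on the wild-type arrays. Both knockout values lay more than 1 log2 unit below the lower wild-type value. The log2 fold change was -1.19 ± 0.12 (SE, n = 2 per group, limma adjusted p = 0.00737), or 2.27-fold lower with a 95% interval of 1.86 to 2.78. Pfkm (probe set 10426557) went the other way, at 9.50 and 9.56 in the knockout against 9.09 and 9.12 in wild type. Its arrays did not overlap, but the log2 fold change of 0.43 ± 0.11 did not pass the test (limma adjusted p = 0.101). Pfkp had overlapping values between 6.87 and 7.06, with a log2 fold change of 0.03 ± 0.12.

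The Pfkfb genes encode enzymes that make and remove fructose-2,6-bisphosphate, the activator of phosphofructokinase, and Pfkfb4 is the isozyme known as the testis form. Pfkfb4 (probe set 10589329) measured 7.07 and 6.78 log2 units in the knockout against 8.63 and 8.42 in wild type. This was the largest change among the 36 genes, with a log2 fold change of -1.60 ± 0.15 (limma adjusted p = 0.00529). The gene was 3.03-fold lower, with a 95% interval of 2.38 to 3.85. Pfkfb2, the heart-type isozyme, measured 8.59 and 8.54 against 8.96 and 8.86, without overlap, and did not pass (log2 fold change -0.34 ± 0.11, limma adjusted p = 0.156). Pfkfb3, an inducible isozyme with high kinase activity, had values between 8.81 and 8.96 on all arrays and a log2 fold change of -0.03 ± 0.12, with a 95% interval of -0.30 to 0.25.

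**Figure D2:**
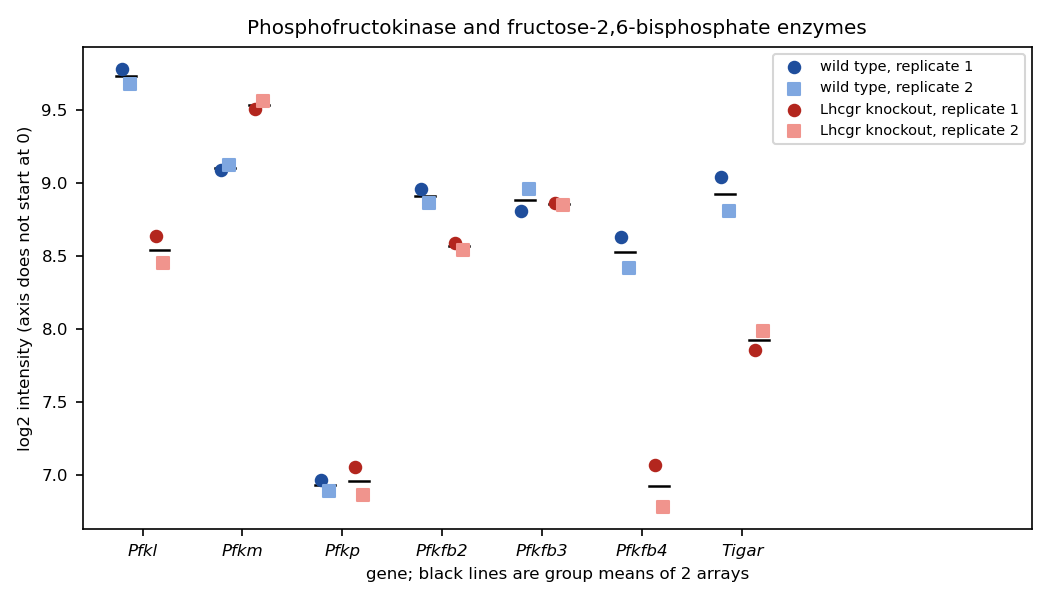
Points give log2 intensity on each of the 4 arrays for phosphofructokinase subunits and for enzymes that act on fructose-2,6-bisphosphate, with wild type in blue, knockout in red and group means as black lines. Pfkl, Pfkfb4 and Tigar are lower on both knockout arrays, Pfkm is higher without passing the test, and Pfkp and Pfkfb3 overlap.

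Promoter sequences of Pfkl and Pfkfb4 are shown because both genes fell at the same metabolic step, beside the upstream of 2 listed promoters of Ldha, a well known target of hypoxia-inducible factor (HIF) that did not pass the test. Each runs 5′ to 3′ from 250 bases before to 50 bases after a RefSeq transcription start on GRCm38.p6. Capitals mark the HIF core letters ACGTG or GCGTG, searched on both strands, so their complements CACGT and CACGC are marked too. Pfkl lies on the minus strand at chr10:78009758-78010057, Pfkfb4 on the plus strand at chr9:108991652-108991951 and Ldha on the plus strand at chr7:46845554-46845853.
Pfkl: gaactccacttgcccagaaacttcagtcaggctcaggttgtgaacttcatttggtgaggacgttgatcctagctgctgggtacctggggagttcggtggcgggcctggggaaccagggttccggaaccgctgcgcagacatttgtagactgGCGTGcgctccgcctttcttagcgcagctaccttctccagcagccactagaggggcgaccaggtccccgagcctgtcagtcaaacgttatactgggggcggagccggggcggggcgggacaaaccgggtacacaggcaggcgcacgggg
Pfkfb4: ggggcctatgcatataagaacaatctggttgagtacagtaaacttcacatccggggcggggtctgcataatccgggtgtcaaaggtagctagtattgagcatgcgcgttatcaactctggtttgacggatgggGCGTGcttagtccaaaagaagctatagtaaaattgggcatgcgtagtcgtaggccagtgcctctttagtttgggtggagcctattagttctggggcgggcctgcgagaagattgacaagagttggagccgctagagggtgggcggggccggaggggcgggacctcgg
Ldha: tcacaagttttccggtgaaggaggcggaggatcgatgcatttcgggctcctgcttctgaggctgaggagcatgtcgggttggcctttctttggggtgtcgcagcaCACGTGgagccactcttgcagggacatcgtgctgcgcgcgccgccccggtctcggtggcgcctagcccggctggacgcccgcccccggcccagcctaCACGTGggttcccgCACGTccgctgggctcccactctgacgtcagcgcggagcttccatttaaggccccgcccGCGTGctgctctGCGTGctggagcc

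The HIF core letters stood at 1 place in Pfkl, 99 bases before the start, at 1 place in Pfkfb4, 117 bases before the start, and at 5 places in this Ldha promoter, where overlapping matches were counted as 1 place. RefSeq promoters were matched by symbol for 32 of the 36 measured genes, with 46 starts among them. The letters occurred in 36 of these 46 windows (78.3%), against 43.8% of all 32851 promoters. Counted by gene, 28 of the 32 had them in at least 1 window, and no such share was taken over all genes. The members' promoters also held more G and C, with a median of 60.7% against 52.7%, and the letters searched are rich in these bases. GGGCGG, the GC box bound by Sp1, occurred in 47.8% of the members' windows against 35.7% of all, with 3 matches in Pfkl and 4 in Pfkfb4 over both strands. CAAGGTCA, a binding site of the steroidogenic factor NR5A1, matched none of the 46 windows and 1.56% of all promoters. The E-box CACGTG, which contains the HIF core letters, occurred in 13% of the members' windows against 7.15% of all, and the cyclic AMP response element TGACGTCA in 2.17% against 1.79%. The Ldha window holds 2 E-boxes and a cyclic AMP response element that begins 12 bases before the start. These are letter matches and were not tested for binding.

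Glucose enters cells through the SLC2A transporters. Slc2a3 (probe set 10547641), the high-affinity transporter GLUT3, measured 8.21 and 8.20 log2 units in the knockout against 8.84 and 9.02 in wild type. Both knockout values lay more than 0.6 log2 units below the lower wild-type value. The log2 fold change was -0.73 ± 0.12 (limma adjusted p = 0.0304), or 1.65-fold lower with a 95% interval of 1.36 to 2.02. Without wild-type replicate 2 the change was -0.64 and no longer passed (limma adjusted p = 0.0723).

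The remaining transporters did not pass, although none of their arrays overlapped and all were lower in the knockout. Slc2a1, the widespread transporter GLUT1, measured 10.25 and 10.30 against 10.52 and 10.57 (log2 fold change -0.27 ± 0.11, limma adjusted p = 0.210). Slc2a8, the intracellular transporter GLUT8, which is prominent in testis, had closely matched replicates of 7.90 and 7.91 against 8.26 and 8.27 (log2 fold change -0.36 ± 0.11, limma adjusted p = 0.135). The insulin-responsive transporter gene Slc2a4 had a log2 fold change of -0.23 ± 0.12. The knockout arrays lay below the wild-type arrays in 4 of these 4 genes, against 22.4% of all genes, and 1 of the 4 was called lower, against 2.14%. Of 9 further glucose carriers measured outside the set, none lay wholly below and 2 wholly above (22.2%, against 36.8% of all genes). All had a log2 fold change above 0 (0.04 to 0.48), where 39.4% of all genes lay below 0, and none passed.

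Hexokinases trap glucose as glucose-6-phosphate, and none of the 3 measured passed. Hk1 had the widest spread of them on the probe set used. It measured 12.10 and 11.46 in the knockout against 12.00 and 11.85 in wild type (log2 fold change -0.15 ± 0.21). The Hk2 knockout arrays were also apart, at 9.84 and 10.29, and its log2 fold change of -0.17 ± 0.17 changed sign without knockout replicate 1. Hk3 was slightly higher on both knockout arrays (log2 fold change 0.15 ± 0.12). A much dimmer Hk1 probe set (10369541) measured 8.31 and 8.40 in the knockout against 8.51 and 8.68 in wild type. Its arrays did not overlap and its log2 fold change was -0.24. Which of the Hk1 probe sets better reflects the gene was not tested.

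In the middle of the pathway, aldolase splits the sugar and triose phosphate isomerase (Tpi1) interconverts the products. Tpi1 measured 9.65 and 9.61 log2 units in the knockout against 10.05 and 10.11 in wild type, with close replicates and no overlap. The log2 fold change of -0.45 ± 0.11 did not pass (limma adjusted p = 0.0907). Aldoc, the brain-type aldolase, measured 7.25 and 7.22 against 8.16 and 7.58, so that the wild-type arrays differed from each other by more than the lower one differed from the knockout. Its log2 fold change was -0.64 ± 0.19 with a 95% interval of -1.10 to -0.18 (limma adjusted p = 0.136). Without wild-type replicate 2 it was -0.93 and passed (limma adjusted p = 0.0144), and without replicate 1 it was -0.35 (limma adjusted p = 0.421). Aldoa, the muscle-type and most widespread aldolase, had a log2 fold change of 0.15 ± 0.11.

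None of the 6 measured genes of the later steps that yield ATP passed the test. Eno2, the neuronal enolase, measured 7.11 and 7.07 in the knockout against 6.77 and 6.83 in wild type, without overlap (log2 fold change 0.29 ± 0.11, limma adjusted p = 0.197). Eno3, the muscle enolase, had -0.22 ± 0.12. The phosphoglycerate kinase Pgk1 had -0.21 ± 0.17, with 9.62 and 9.70 in the knockout and 9.62 and 10.11 in wild type, where only wild-type replicate 2 stood higher. Its other 2 probe sets gave -0.21 and -0.20 with near-identical values, and sequence shared with retrocopies of the gene cannot be told apart here. Pkm, pyruvate kinase, had -0.06 ± 0.16 with overlapping arrays. Its other probe set, only slightly dimmer, gave -0.20, at 10.47 and 10.68 in the knockout against 10.69 and 10.86 in wild type. Those arrays only just did not overlap, and which Pkm probe set better reflects the gene was not tested. The mutases Pgam1 and Pgam2 had log2 fold changes of 0.08 and 0.05. In all, 5 members had more than 1 probe set, and the 7 further probe sets all had the sign of the one used. None of the called genes was among these members. The further probe sets of Pgam1 also gave near-identical values to each other, so the 7 are not independent checks.

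Lactate dehydrogenase converts pyruvate to lactate and back. Ldha, whose subunit favours lactate formation, measured 10.01 and 10.22 log2 units in the knockout against 10.29 and 10.57 in wild type. The groups did not overlap, by a narrow margin, and the log2 fold change was -0.32 ± 0.14 with a 95% interval of -0.66 to 0.03 (limma adjusted p = 0.243). Ldhb, whose subunit favours the reverse reaction, had overlapping arrays between 11.87 and 12.05 and a log2 fold change of 0.03 ± 0.12. Its other probe set gave 0.02, and which of the Ldhb probe sets better reflects the gene was not tested.

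Monocarboxylate transporters carry lactate and pyruvate across membranes. Slc16a1 (MCT1) and Slc16a3 (MCT4, the exporter of glycolytic cells) had log2 fold changes of 0.04 ± 0.13 and 0.06 ± 0.13, with 95% intervals of -0.29 to 0.36 and -0.27 to 0.38. Basigin (Bsg), the chaperone that brings both to the membrane, measured 11.49 and 11.39 against 11.72 and 11.65, a log2 fold change of -0.24 ± 0.11 that did not pass (limma adjusted p = 0.254). Slc16a7 (MCT2, a high-affinity importer) had 6.91 and 6.86 in the knockout against 7.03 and 7.55 in wild type. Its log2 fold change of -0.41 ± 0.18 rested on wild-type replicate 2, since it was -0.15 without that array and -0.67 without replicate 1 (limma adjusted p = 0.699 and 0.0466).

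Pyruvate dehydrogenase moves pyruvate into mitochondrial oxidation, and its 4 kinases switch it off. None of these 5 genes passed. Pdk1 measured 10.31 and 10.29 in the knockout against 9.86 and 10.09 in wild type (log2 fold change 0.32 ± 0.13, limma adjusted p = 0.202). Pdk2 and Pdk4 had wide replicate spreads and log2 fold changes of -0.29 ± 0.19 and -0.24 ± 0.23. Pdk3 had 0.09 ± 0.13, and Pdha1, the catalytic subunit of the complex, had -0.22 ± 0.14.

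Among the glycogen enzymes, Pygb, the brain-type glycogen phosphorylase that releases sugar from glycogen, measured 11.14 and 11.23 in the knockout against 10.70 and 10.72 in wild type. This was the highest fold change of the set, without overlap, at 0.47 ± 0.11 on the log2 scale (limma adjusted p = 0.0857), and it passed with an intensity trend in the variance model (adjusted p = 0.0418). Pygl, the liver phosphorylase, had 0.19 ± 0.12 and the glycogen synthase Gys1 had -0.12 ± 0.13, and neither passed.

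**Figure D3:**
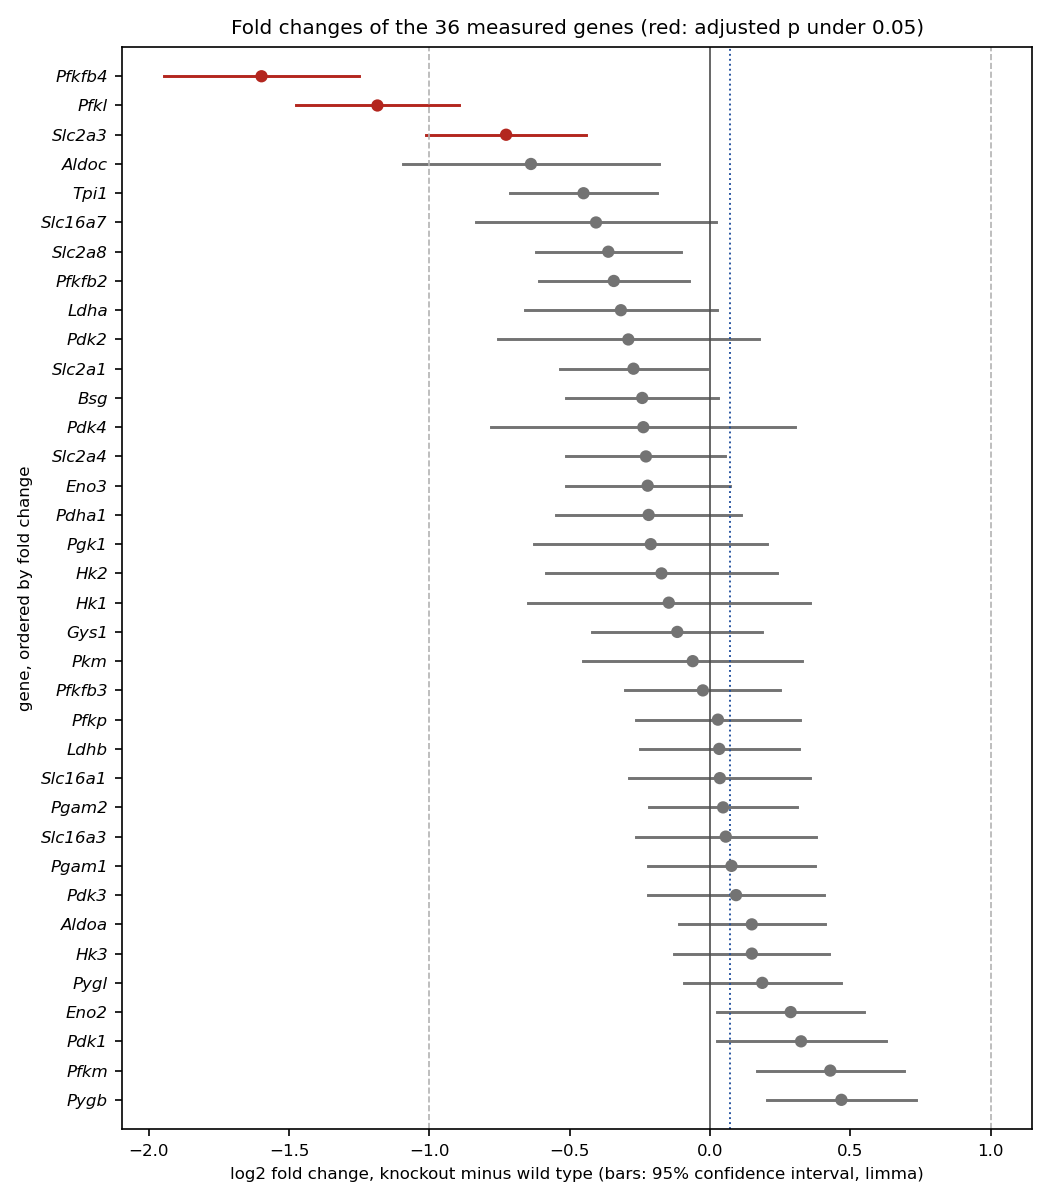
Points show the log2 fold change of each of the 36 genes, knockout minus wild type, with bars for the 95% confidence interval from limma, red where the adjusted p was under 0.05. Dashed lines mark 2-fold either way and the blue dotted line marks the median of all genes at 0.07. Pfkfb4 and Pfkl stand furthest to the left, and all bars of genes that did not pass, except that of Aldoc, lie between the dashed lines.

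A further 87 genes of glucose metabolism that are not in the set were measured out of 94 listed. Of these, 3 fell and 1 rose, or 3.45% and 1.15%, near the 2.14% and 0.963% of all genes, and the other 83 did not pass. Their median log2 fold change was -0.01. Tigar, a phosphatase that removes fructose-2,6-bisphosphate, measured 7.86 and 7.99 log2 units in the knockout against 9.04 and 8.80 in the controls (log2 fold change -0.999 ± 0.13, limma adjusted p = 0.0149). Ldhd, the mitochondrial dehydrogenase of D-lactate, measured 7.15 and 7.21 against 8.88 and 9.74 and had a log2 fold change of -2.13 ± 0.26 (limma adjusted p = 0.0120). Its change ran from -2.56 to -1.69 as single arrays were left out. Ppp1r3c, which targets a phosphatase to glycogen, had values of 7.53 and 7.72 against 8.48 and 8.39 (log2 fold change -0.81 ± 0.12, limma adjusted p = 0.0238). Ppargc1a, a coactivator of mitochondrial and gluconeogenic genes, rose, with 8.61 and 8.87 against 7.69 and 7.63 (log2 fold change 1.09 ± 0.13, limma adjusted p = 0.0115).

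By role, none of 9 further glucose carriers, 7 gluconeogenesis genes or 8 genes of pyruvate entry passed. Neither did any of 7 pentose phosphate genes or 6 of the polyol and hexosamine branches. Among all genes only 2.14% were called lower and 0.963% higher, so such small groups say little. Knockout arrays lay wholly below wild type in 75% of pyruvate entry, 57.1% of pentose phosphate, 50% of polyol and hexosamine and 14.3% of gluconeogenesis genes. The share of all genes was 22.4%. Wholly above were 12.5%, 14.3%, 16.7% and 28.6% in that order, against 36.8%. The genes of pyruvate entry had a median of -0.25, and the carriers one of 0.10. The HIF subunit genes Hif1a, Epas1 and Arnt had log2 fold changes of -0.20 ± 0.12, 0.29 ± 0.15 and 0.13 ± 0.11 and did not pass. Glycolytic isozymes found in sperm were looked at as a sign of remaining germ cells. Pgk2 measured 6.69 and 6.70 in the knockout against 6.86 and 6.32 in wild type, Gapdhs 7.32 and 7.21 against 7.56 and 7.01, and Ldhc 6.40 and 6.28 against 6.29 and 6.16. All 3 overlapped between genotypes, Ldhc only just. The remaining sperm isozyme, Ldhal6b, did not overlap, at 7.13 and 7.50 in the knockout against 6.97 and 7.04 in wild type (log2 fold change 0.31 ± 0.15). None of the 4 passed (limma adjusted p from 0.265 to 0.964). Their mean intensities ranked at only 12.7% to 38.1% of all genes, so values this dim say little about remaining germ cells.

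**Figure D4:**
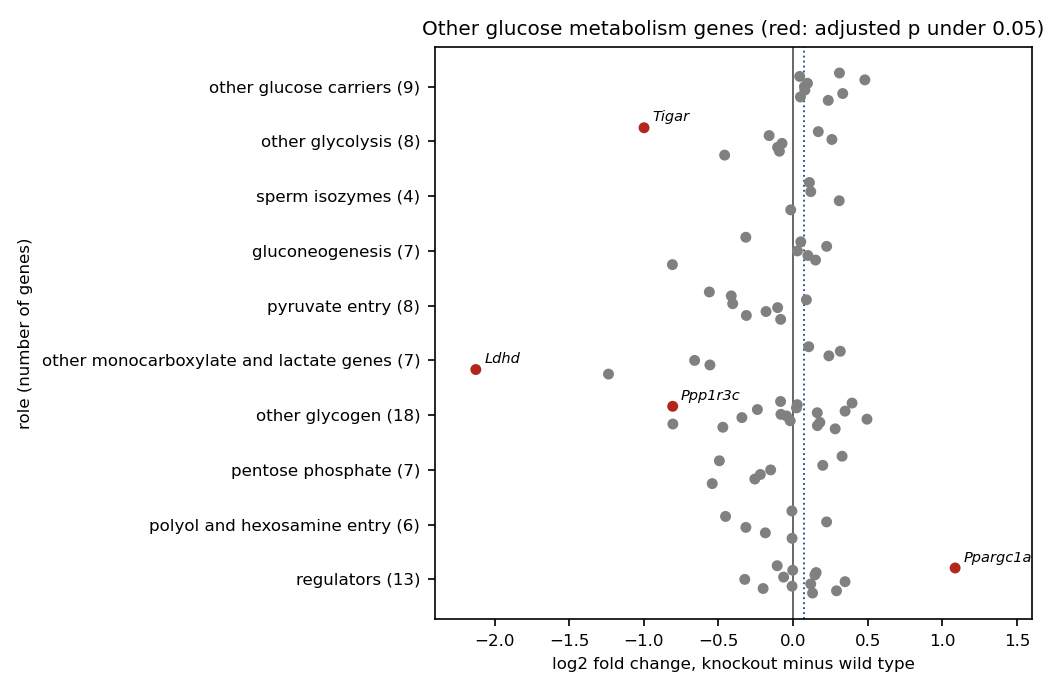
Points show the log2 fold change, knockout minus wild type, of 87 further genes of glucose metabolism by role, with the number of genes in brackets and red points for adjusted p under 0.05. Ldhd, Tigar and Ppp1r3c lie to the left and Ppargc1a to the right, while the other points lie between -1.24 (Emb) and 0.49 (Pgm2). The blue dotted line marks the median of all genes.

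With a single array left out, the falls in Pfkfb4, Pfkl and Slc2a3 kept their direction but not always their call. Pfkfb4 ranged from -1.74 to -1.46 and Pfkl from -1.28 to -1.09 on the log2 scale. Neither passed without knockout replicate 1 (limma adjusted p = 0.0818 and 0.0847) or without knockout replicate 2 (0.0899 and 0.116). Slc2a3 ranged from -0.82 to -0.64 and had limma adjusted p = 0.184 and 0.210 without those arrays. Ppargc1a, Ldhd, Tigar and Ppp1r3c likewise passed only with both knockout arrays, with limma adjusted p from 0.0847 to 0.176 without either. Among all genes, 192 were called higher and 426 lower with all arrays, but only 2 and 16 without knockout replicate 1, and 2 and 21 without knockout replicate 2. Under the 5 alternatives of scaling, filtering, probe set choice and added offset, all 3 genes passed each time.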

How the data were processed

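The authors deposited 1 linear intensity per probe set and array, on 28856 probe sets, with array medians from 198 to 215 and a lowest value of 16 on each array. Per the labels' protocols, sense-strand cDNA was labelled with biotin for Affymetrix whole-transcript arrays, and the submitters' processing notes name mm9. The sources used here do not give summarization, background correction or normalization. The number of arrays limits the precision, and a lowest value of 16 may compress changes of weak genes. All measured members had means above at least 27.5% of genes.

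Of the probe sets, 21789 carry 1 gene symbol, 1621 several and 5446 none listed in the platform annotation. Entrez numbers of 21698 of the 21789 matched RefSeq genes (GRCm38.p6), where 0 symbols differed. The brightest probe set of each gene was taken to log2, giving 19938 genes, and tested with lmFit and eBayes in limma 3.58.1 (R 4.3.3), without covariates, at a Benjamini-Hochberg adjusted p under 0.05 over all genes. The prior carried 4.65 degrees of freedom beside 2 residual ones. The script was tested on simulated data.

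The members and lists were chosen with earlier results of these data known. All members are named; the 10 with the lowest p, with others added, are given array by array. Of other pathway genes, those past the threshold (up to 6 per direction) and Pgk2, Gapdhs and Ldhc are named, with Ldhal6b, Hif1a, Epas1 and Arnt added after their values were seen. Alternatives were quantile normalization, median centring, leaving out the lowest 25% of genes, averaging probe sets, adding 32 before log2, eBayes with trend or a robust prior, a threshold of 0.1, the replicate number as a block, and leaving out each array.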

Additional observations from a re-analysis of the deposited data

How the results depend on the processing

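Over 13 alternatives, the 36 members gave 468 values, of which 432 kept direction and side of the threshold, 7 lost the call, 5 gained one and 24 changed sign, all in genes that did not pass. Pfkfb4, Pfkl and Slc2a3 passed in every alternative except arrays left out. The number of members called lower ran from 0 to 4 with single arrays left out, and their median from -0.14 to -0.06. That median was -0.23 after centring on array medians, where that of all genes was 0.01. After quantile normalization the members' median was -0.12 and that of all genes 0.02. With the lowest 25% of genes left out they were -0.16 and 0.02. With an eBayes trend, and at a threshold of 0.1, 1 member was called higher. The other pathway genes called lower, 3 in the main setting, were 6 after centring, with the lowest 25% of genes left out, with 32 added and with an eBayes trend, 7 with a robust prior, and 9 at a threshold of 0.1. They ran from 0 to 5 with single arrays left out, and those called higher from 0 to 1. At a threshold of 0.1, 482 of all genes were higher and 762 lower. The causes were not tested.

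Replicate numbers are not stated to pair samples, and deviations of same-numbered arrays correlated at 0.02. With the replicate block the other pathway genes called lower were 5, the members called lower stayed at 3 (the same 3 genes), and 173 of all genes were higher and 399 lower.

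Log2 fold changes near 0 changed sign after quantile normalization in Pfkp (-0.09), Pfkfb3 (0.03), Pgam2 (-0.07), Pgk2 (-0.03) and Ldhc (-0.02), and after centring in Pfkp (-0.04), Pgam2 (-0.02), Ldhb (-0.03), Slc16a1 (-0.03) and Slc16a3 (-0.01). With single arrays left out, ranges that crossed 0 were -0.47 to 0.17 for Hk1, -0.40 to 0.06 for Hk2, -0.07 to 0.12 for Pfkp, -0.10 to 0.05 for Pfkfb3, -0.46 to 0.03 for Pgk1, -0.04 to 0.19 for Pgam1, -0.26 to 0.14 for Pkm, -0.06 to 0.12 for Ldhb, -0.11 to 0.18 for Slc16a1, -0.09 to 0.20 for Slc16a3, -0.02 to 0.20 for Pdk3, -0.50 to 0.02 for Pdk4, -0.23 to 1e-04 for Gys1, -0.16 to 0.38 for Pgk2 and -0.29 to 0.26 for Gapdhs.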
